A study of Mus musculus with 10 samples.

Results

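The genes described here encode the nuclear subunits of respiratory complexes II, III, IV and V and the carrier cytochrome c, in ventricles of naive and sham-operated mice. They were chosen by name among protein-coding genes: Sdha, Sdhb, Sdhc, Sdhd, Cyc1, Cycs, every gene whose name begins with Uqcr or Atp5, and the Cox genes of subunits 4 to 8. With repeated Ensembl identifiers collapsed, 49 of 40690 genes met this rule, which used no measured value. Complex II had 4 of them, complex III 9, complex IV 18 and complex V 17, and Cycs stood alone as the carrier. Cox7a2l, Atp5s and Atp5sl carry such names but are known as assembly or coupling factors rather than core subunits.

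All animals were male C57BL/6 mice aged 10 weeks, with no engineered allele and no drug named in the labels. The 5 naive samples are from mice without surgery, and the 5 sham samples are from mice that had the operation that serves as the control for cardiac ischemia-reperfusion. The labels used here name no time between surgery and collection. They list separate samples without saying that each came from its own mouse, so the tests weigh group differences against spread that may be partly technical. Polyadenylated RNA of frozen ventricles was sequenced without strand information, and the values below are reads counted per gene. The comparison asks how far the RNA of these subunits differed between hearts with and without a sham operation.

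Complex II oxidises succinate and passes its electrons to ubiquinone. Complex III hands electrons from ubiquinol to cytochrome c, complex IV (cytochrome c oxidase) passes them to oxygen, and complex V (ATP synthase) uses the proton gradient to make ATP. Heart muscle is packed with mitochondria, and in complex IV it uses muscle isoforms of several small subunits in place of the isoforms found in most other cells. The subunits at the core of complexes III to V are encoded partly in mitochondrial DNA, so both genomes must supply parts.

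Total counts per library ran from 9683181 to 21537135, and 3 counts, taken as the floor of detection, corresponded to 0.139 to 0.310 CPM (counts scaled to a common library size with TMM factors). These floors cover counting error only. The library sham 4 stood apart: its counts differed from those of the other sham libraries by a chi-square of 72.7 to 95.4 per degree of freedom, against 10.1 to 22.3 among the other 4. Naive libraries differed from each other by 9.93 to 62.9. In sham 4 the median chain gene lay 0.34 above the sham mean on the log2 scale, so counts are given with and without it. Defining markers of ventricular cardiomyocytes were abundant. The atrial gene Sln had 0 counts in all naive libraries and 1 count over the sham libraries, in sham 4. Atrial Myl7 had 0.57 to 1.31 CPM in naive, 3.30 CPM in sham 4 and 0.13 to 0.73 CPM in the other sham libraries. Myl4 and Nppa were also highest in sham 4, at 4.02 and 131 CPM.

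Of the 49 genes, 47 passed the filter on low counts. The other 2 are isoforms known from testis: Cox7b2 had 2 counts in all naive libraries together and 0 in sham, and Cox8c had 1 and 1. By edgeR's quasi-likelihood test with Benjamini-Hochberg adjustment over 13622 genes, 16 of the 47 (34.0%) were lower in sham at an adjusted p under 0.05, none was higher, and 31 did not pass. Over all genes tested 15.5% were lower and 17.2% were higher. No chain gene had a positive change at an unadjusted p under 0.05, against 27 with a negative one. The like counts over all genes at an unadjusted p were not worked out. DESeq2 and limma voom also called 0 higher, with 19 and 36 lower. Among all genes tested, DESeq2 called 16.2% lower and limma voom 23.8%. The median log2 fold change of the 47 was -0.29, against -0.05 over all genes tested. Of the 47, 43 were negative, against 7483 of all 13622 genes tested. In 8 of them (17.0%) every sham library lay below every naive one, against 9.18% of all genes tested. None had every sham library above every naive one, against 13.6%.

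Abundant genes as a whole leaned the same way. Among the 1511 genes with a mean of at least 100 CPM, 39.0% were lower in sham, and of the 36 chain genes in that class 15 (41.7%) were lower. The medians were -0.21 for that whole class and -0.30 for the chain genes in it. The chain's share of lower genes was thus near that of other abundant genes.

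The direction also leaned on the scaling. When counts were scaled by library size alone, 0 chain genes were lower and 1, Cox6a1, was higher. Over all genes that scaling moved the calls from 2342 higher and 2113 lower to 4473 and 283. It moved the median of all genes from -0.05 to 0.22 and that of the chain genes from -0.29 to -0.03, so the chain lay below the median gene by a like amount either way. Without sham 4, 32 chain genes were lower instead of 16, and 15 genes were in both counts. The share lower among all genes tested was then 13.1%, against 15.5% in the main fit. Leaving out sham 2, sham 3 or sham 5 gave 9, 9 and 10 lower, with 10.6%, 11.9% and 10.8% of all genes tested lower. Of the 16 genes called lower, 9 lost the call only with library size alone: Sdha, Sdhb, Sdhd, Uqcrc1, Uqcrfs1, Cyc1, Cox7a1, Atp5a1 and Atp5b. The other 7 lost it in further settings too.

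**Figure D1:**
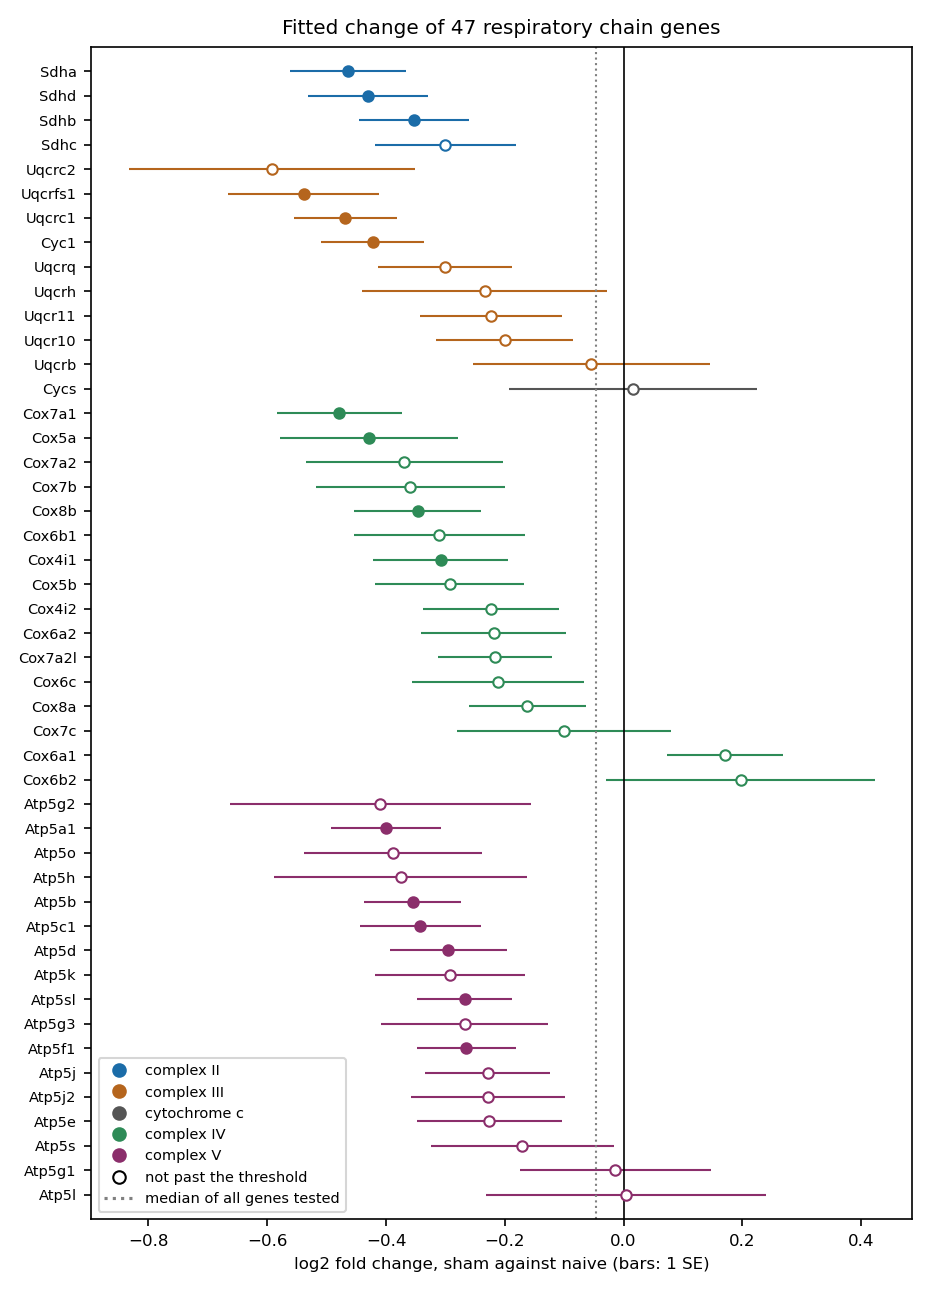
Log2 fold change of sham against naive on the horizontal axis, with bars of 1 standard error, for the 47 genes tested, ordered within complexes II to V by the size of the change. Filled points are the 16 genes past the threshold; with TMM scaling 43 points lie left of 0, and with library size alone none of the 16 keeps its call.

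In complex II, 3 of 4 genes were lower in sham, with a median log2 fold change of -0.39. All 4 had at least 100 CPM on average, a class in which 39.0% were lower, against 15.5% of all genes tested. Sdha, the flavoprotein that oxidises succinate (ENSMUSG00000021577, chr13:74322254-74350280, GRCm38), had 647, 774, 780, 908 and 917 CPM in naive 1 to 5 and 592, 589, 548, 568 and 623 CPM in sham 1 to 5. Every sham library lay below every naive one, and Sdha fell by 27.5% (log2 fold change -0.46 ± 0.10 SE, edgeR adjusted p 0.0018).

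Sdhb carries the iron-sulfur clusters that relay the electrons. Its naive values were 858, 908, 907, 903 and 842 CPM and its sham values 668, 654, 610, 848 and 680 CPM. Sham 4 alone reached the naive range, the others lay far below it, and Sdhb fell by 21.7% (-0.35 ± 0.09, edgeR adjusted p 0.0079). Sdhd, a membrane anchor, read 222, 245, 269, 287 and 306 CPM in naive and 187, 185, 179, 229 and 206 CPM in sham. Sham 4 again passed the lowest naive library, and Sdhd fell by 25.8% (-0.43 ± 0.10, edgeR adjusted p 0.0040). The other anchor, Sdhc, had 332 ± 50.3 CPM (SD, n = 5) in naive and 270 ± 39.4 CPM in sham and did not pass (-0.30 ± 0.12, edgeR adjusted p 0.0638).

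In complex III, 3 of 9 genes (33.3%) were lower, with a median of -0.30, and 6 were lower without sham 4. The share lower was 15.5% of all genes tested, 13.1% without sham 4, and 39.0% of those with at least 100 CPM. The 3 genes of complex III were the core protein Uqcrc1 and both nuclear subunits that carry electrons, Cyc1 and Uqcrfs1. Uqcrc1 (chr9:108936633-108949623) had 1579, 1523, 1592, 1638 and 1461 CPM in naive and 1197, 1077, 983, 1287 and 1089 CPM in sham. The groups did not overlap, and Uqcrc1 had the smallest p of the 47 genes (-0.47 ± 0.09, edgeR adjusted p 0.00069).

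Cyc1, which holds the heme of cytochrome c1, had 1191, 1120, 1230, 1221 and 1166 CPM in naive and 939, 840, 769, 1010 and 865 CPM in sham. Its groups did not overlap either, and it fell by 25.4% (-0.42 ± 0.09, edgeR adjusted p 0.0015). Uqcrfs1, the Rieske iron-sulfur protein, had 1052, 902, 909, 675 and 738 CPM in naive and 747, 543, 568, 522 and 562 CPM in sham. Here sham 1 was the high library, above naive 4 and 5, and sham 4 the lowest of all. Uqcrfs1 fell by 31.2% (-0.54 ± 0.13, edgeR adjusted p 0.0041).

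The other core protein, Uqcrc2, had the largest fitted change of the 47 and did not pass (-0.59 ± 0.24, edgeR adjusted p 0.0832). Its naive libraries spread from 105 to 276 CPM, at 105, 140, 159, 276 and 257 CPM, while the sham libraries held 113, 117, 106, 142 and 143 CPM. Naive 4 and 5 stood above all other libraries, and naive 1 was the lowest library of all. A stretch of 26.6% of its exon bases overlaps Pdzd9 on the opposite strand, whose reads cannot be told apart from its own in these libraries. None of the 5 small accessory subunits of complex III passed: Uqcrq, Uqcrh, Uqcr11, Uqcr10 and Uqcrb had changes from -0.30 to -0.05, and Uqcrq came nearest (edgeR adjusted p 0.0515). Uqcrb stood at 7.01 CPM in naive, and 43.4% of its 50-base stretches also occur in transcripts of 5 other genes.

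Cycs, the carrier between complexes III and IV, had 2.46 ± 0.56 CPM in naive and 2.49 ± 0.42 CPM in sham (0.02 ± 0.21, edgeR adjusted p 0.963). Per kilobase of exon this was 0.79 RPKM in naive, the lowest level of the 47 genes. Of the 50-base stretches of its transcripts, 28.5% also occur in transcripts of 76 other genes, 10 of them pseudogenes. Reads that match several places may have been discarded in the authors' counting, which the sources used here do not say, so its level is uncertain.

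In complex IV, 4 of 16 genes tested were lower, with a median of -0.26. Without sham 4 it was 11, without naive 2 or naive 3 it was 2, and without sham 2, sham 3 or sham 5 it was 1. Cox7a1, the muscle isoform of subunit 7A (chr7:30184144-30186078), had 793, 755, 828, 790 and 839 CPM in naive and 545, 553, 482, 748 and 546 CPM in sham. Sham 4 came close to naive 2 but stayed below it, and Cox7a1 was the 1 gene of this complex whose groups did not overlap (-0.48 ± 0.11, edgeR adjusted p 0.0025). That is 6.25% of the 16 tested, while 9.18% of all genes tested had every sham library below every naive one.

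Cox8b, the muscle isoform of subunit 8, had 944, 847, 874, 845 and 784 CPM in naive and 693, 634, 567, 861 and 622 CPM in sham. Sham 4 fell inside the naive range, and Cox8b fell by 21.4% (-0.35 ± 0.11, edgeR adjusted p 0.020); without sham 2, 3 or 5 it did not pass. Cox5a, a subunit on the matrix side of the complex, had 1265, 938, 912, 718 and 646 CPM in naive and 756, 647, 609, 714 and 600 CPM in sham. The naive libraries alone spanned more than the gap between the groups, and Cox5a fell by 25.7% (-0.43 ± 0.15, edgeR adjusted p 0.038). It did not pass in 11 of 23 alternatives, among them a GC correction (edgeR adjusted p 0.118) and the omission of any 1 of naive 1, 2 and 3 and sham 2, 3, 4 and 5 (without sham 4, edgeR adjusted p 0.059). Of the exon bases of Cox5a, 41.7% overlap Gm26631 on the opposite strand.

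Cox4i1, the main isoform of subunit 4, had 884, 907, 903, 1095 and 960 CPM in naive and 706, 722, 653, 1012 and 744 CPM in sham. All sham libraries but sham 4 lay below the naive range, and the change barely passed (-0.31 ± 0.11, edgeR adjusted p 0.0492); it did not pass in 11 of 23 alternatives. Its second isoform Cox4i2, which is linked to low oxygen, was far scarcer, at 18.1 ± 1.85 CPM in naive and 15.4 ± 2.16 CPM in sham (-0.22 ± 0.11, edgeR adjusted p 0.153). Per kilobase of exon, Cox4i1 stood at 1242 RPKM in naive and Cox4i2 at 23.0 RPKM. Of the exon bases of Cox4i1, 20.1% overlap Emc8 on the opposite strand, and 12.3% of its 50-base stretches occur in 1 other gene. Cox5b, Cox6b1, Cox6c, Cox7b and Cox7c, the remaining single or main isoforms, had changes from -0.36 to -0.10 and did not pass. Cox7a2l, a factor of respiratory supercomplexes, changed by -0.22 ± 0.10 and the testis isoform Cox6b2 by 0.20 ± 0.23, neither past the threshold.

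Subunits 6A, 7A and 8 exist in mice as a muscle and a ubiquitous isoform, each from its own gene, which gives pairs whose ratio within a library does not depend on the scaling. The 250 bases upstream of the RefSeq start (GRCm38) are shown for Cox6a1, the ubiquitous gene of the pair that changed, and for both genes of the Cox8 pair, so that a muscle and a ubiquitous gene can be set side by side; capitals mark matches to the short motifs listed further down. Cox6a1 lies at chr5:115348959-115349208, Cox8b at chr7:140900447-140900696 and Cox8a at chr19:7217617-7217866, all on the minus strand. For Cox6a2 no sequence is shown.
Cox6a1: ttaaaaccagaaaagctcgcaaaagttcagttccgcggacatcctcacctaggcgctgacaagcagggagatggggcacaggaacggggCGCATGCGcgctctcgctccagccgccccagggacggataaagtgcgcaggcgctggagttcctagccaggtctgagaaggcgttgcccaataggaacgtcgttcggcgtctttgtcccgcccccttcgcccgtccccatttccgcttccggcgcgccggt
Cox8b: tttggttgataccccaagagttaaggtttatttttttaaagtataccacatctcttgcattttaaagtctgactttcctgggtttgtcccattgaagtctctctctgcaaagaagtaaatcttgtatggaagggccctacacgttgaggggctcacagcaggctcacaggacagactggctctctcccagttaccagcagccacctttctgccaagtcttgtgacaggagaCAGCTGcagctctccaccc
Cox8a: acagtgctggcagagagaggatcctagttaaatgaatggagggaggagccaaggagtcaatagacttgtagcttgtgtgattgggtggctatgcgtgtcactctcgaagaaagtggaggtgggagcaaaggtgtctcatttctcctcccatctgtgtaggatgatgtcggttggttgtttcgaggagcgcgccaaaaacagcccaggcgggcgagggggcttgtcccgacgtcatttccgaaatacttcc
The Cox6a1 stretch is 62.8% G and C and holds the NRF1 motif CGCATGCG starting 161 bases before the start. The Cox8b stretch is 47.2% G and C and holds the E-box CAGCTG starting 19 bases before its start, and the Cox8a stretch (52.8%) has no match that lies wholly within it.

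The Cox6a pair moved. Cox6a2, the muscle isoform and the highest of all 47 genes per kilobase of exon (5882 RPKM in naive), had 4702, 4380, 4146, 3507 and 3262 CPM in naive and 3489, 3197, 2992, 4339 and 3169 CPM in sham. Cox6a1 had 150, 126, 124, 115 and 120 CPM in naive and 129, 137, 140, 173 and 135 CPM in sham. For both genes the groups overlapped and neither passed alone (Cox6a2 -0.22 ± 0.12, edgeR adjusted p 0.188; Cox6a1 0.17 ± 0.10, edgeR adjusted p 0.200). Cox6a1 and Cox6b2 had the largest positive changes of the 47. Cox6a1 did pass as higher with library size alone (edgeR adjusted p 0.0013) and with naive 1 and sham 4 both left out (edgeR adjusted p 0.0446). A stretch of 10.3% of the exon bases of Cox6a2 overlaps Itgad on the opposite strand. Of the 50-base stretches of Cox6a2 3.33%, and of Cox6a1 12.3%, also occur in transcripts of 1 other gene each. For Cox6a1 that gene is a pseudogene. The part of this overlap and sharing in the ratio was not tested.

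Counts of Cox6a2 per count of Cox6a1 were 31.3, 34.8, 33.4, 30.4 and 27.2 in naive 1 to 5 and 27.0, 23.3, 21.4, 25.04 and 23.5 in sham 1 to 5. All sham ratios lay below all naive ones, with sham 1 just under naive 5. The geometric mean fell from 31.3 to 24.0, a log2 difference of -0.39 ± 0.08 SE. The exact two-sided permutation test gave p = 0.0079, the smallest that 5 against 5 allows, and 0.024 after adjustment over the 3 pairs (n = 5 per group). The adjusted p stayed between 0.012 and 0.048 when any 1 library was left out, also without sham 4, in exact permutation tests. It was 0.0857 with naive 1 and sham 4 both left out, where 4 libraries a side remain. The unadjusted exact permutation p there was 0.0286, the smallest that 4 against 4 allows. The adjusted p could therefore pass only if another pair had a small p too.

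The other pairs did not pass. The ratio of Cox8b to Cox8a was 8.44, 7.58, 7.73, 7.08 and 6.12 in naive and 6.53, 6.47, 6.59, 6.69 and 6.04 in sham. Naive 5 lay inside the sham range, and the log2 difference was -0.19 ± 0.08 (exact permutation p = 0.0556, adjusted 0.083). Without naive 5 the difference was -0.25 with an adjusted exact p of 0.012, so 1 library decides this call. The ratio of Cox7a1 to Cox7a2 was 8.67, 6.83, 6.25, 5.08 and 5.80 in naive and 6.45, 6.48, 6.16, 5.42 and 5.20 in sham. Its groups overlapped throughout, with a log2 difference of -0.12 ± 0.14 (exact permutation p = 0.484), and this pair rested on single libraries: the difference was -0.0091 without naive 1, -0.20 without naive 4, -0.07 without sham 5 and 0.02 with naive 1 and sham 4 left out. After a GC correction the 3 pairs had differences of -0.42, -0.26 and -0.21 for subunits 6A, 7A and 8, all with an adjusted exact p of at most 0.032. Whether the 3 pairs differ from each other was not tested.

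**Figure D2:**
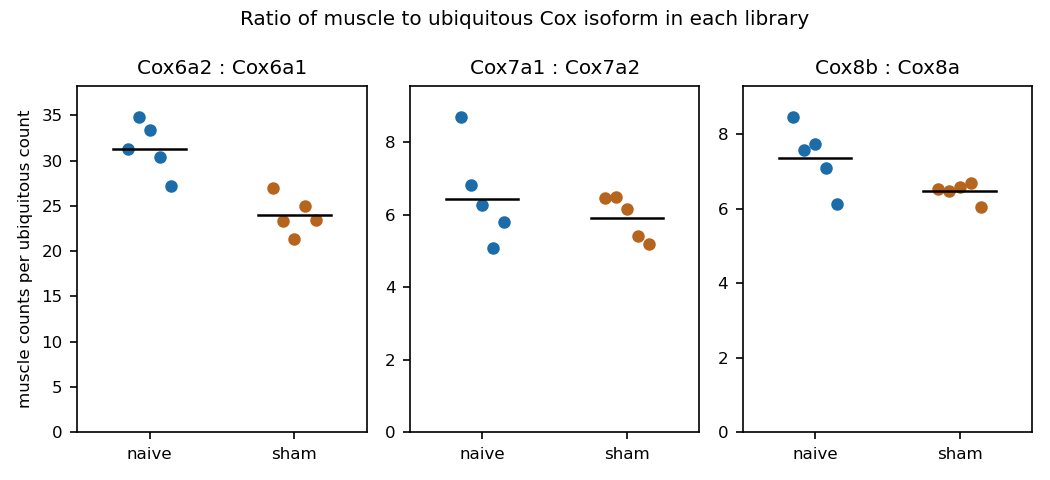
Counts of the muscle isoform per count of the ubiquitous isoform (vertical axis, from 0) in each naive and sham library, with libraries in label order and a line at the geometric mean. For Cox6a2 and Cox6a1 the 5 sham libraries lie between 21.4 and 27.0 and the 5 naive ones between 27.2 and 34.8; the groups overlap for the other pairs.

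By single genes, 2 of 3 muscle isoforms and 0 of 3 ubiquitous isoforms were lower in sham. Among all genes tested 15.5% were lower, and among those with at least 100 CPM 39.0%. The muscle isoforms were the more abundant, at 5659 CPM in naive in sum against 371 CPM. The ubiquitous Cox7a2 had 127 ± 25.9 CPM in naive and 98.2 ± 24.4 CPM in sham (-0.37 ± 0.17, edgeR adjusted p 0.104), and Cox8a had 117 ± 7.06 and 104 ± 15.6 CPM (-0.16 ± 0.10, edgeR adjusted p 0.229). The fitted change of Cox7a2 was thus larger than that of the muscle gene Cox6a2. Ubiquitous isoforms are also made by cells other than muscle, and in bulk tissue fewer cells of a type and less RNA per cell cannot be told apart.

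In complex V, 6 of 17 genes were lower, with a median of -0.27. Without sham 4 it was 11, and without sham 2, sham 3 or sham 5 it was 2, 2 and 3. The catalytic F1 head held 4 of the 6 genes lower in the main fit, among its 5 genes. The share lower was 15.5% of all genes tested and 39.0% of those with at least 100 CPM, a class that holds all 5. Atp5b, the beta subunit with the catalytic sites (chr10:128083273-128090391), had 3574, 3742, 3706, 3980 and 3761 CPM in naive and 3036, 2863, 2634, 3252 and 2884 CPM in sham. The groups did not overlap, and Atp5b fell by 21.8% (-0.36 ± 0.08, edgeR adjusted p 0.0035).

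Atp5a1, the alpha subunit, had 2475, 2816, 2950, 3388 and 3076 CPM in naive and 2307, 2224, 2041, 2372 and 2194 CPM in sham. Its groups did not overlap either (-0.40 ± 0.09, edgeR adjusted p 0.0036). Atp5c1, the gamma subunit that turns inside the head, had 375, 388, 391, 456 and 407 CPM in naive and 324, 300, 274, 398 and 295 CPM in sham, with sham 4 inside the naive range (-0.34 ± 0.10, edgeR adjusted p 0.017). Like Cox8b, it did not pass without sham 2, 3 or 5. Atp5d, the delta subunit, followed with 1230 ± 112 CPM in naive and 1003 ± 123 CPM in sham (-0.30 ± 0.10, edgeR adjusted p 0.031). The epsilon subunit Atp5e did not pass (-0.23 ± 0.12, edgeR adjusted p 0.173).

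Outside the head, Atp5f1, subunit b of the peripheral stalk, had 349 ± 22.6 CPM in naive and 291 ± 24.4 CPM in sham without overlap (-0.26 ± 0.08, edgeR adjusted p 0.023). The other stalk genes Atp5o, Atp5h and Atp5j did not pass, with changes from -0.39 to -0.23. Atp5sl, an assembly factor of complex I despite its name, had 68.2 ± 5.46 and 56.6 ± 3.34 CPM without overlap (-0.27 ± 0.08, edgeR adjusted p 0.017). The related Atp5s did not pass (-0.17 ± 0.15). Atp5f1 and Atp5sl did not pass without a filter on low counts. Atp5f1 also lost its call with the GC correction and without naive 2 or sham 2, 3 or 5, and Atp5sl without sham 2 or 3. The change of Atp5f1 turned to 0.001 with library size alone, and Atp5d lost its call when any of 6 single libraries was left out.

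The rotor ring of complex V is built from 1 protein encoded by 3 genes, none of which passed. Atp5g3, much the most abundant of them per kilobase of exon at 2142 RPKM in naive, had 2030, 1692, 1544, 1395 and 1094 CPM in naive and 1309, 1272, 1116, 1565 and 1180 CPM in sham. Here too the naive spread exceeded the gap between the groups (-0.27 ± 0.14, edgeR adjusted p 0.161). Atp5g1 had 21.7 RPKM in naive and a change of -0.01 ± 0.16, and Atp5g2 had 2.74 RPKM and a change of -0.41 ± 0.25. Of the membrane subunits Atp5j2, Atp5k and Atp5l none passed. Atp5l had the smallest fitted change of the 47 (0.004 ± 0.24), and 84.9% of its 50-base stretches also occur in transcripts of 14 other genes, 12 of them pseudogenes, so its level of 12.9 RPKM is uncertain.

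**Figure D3:**
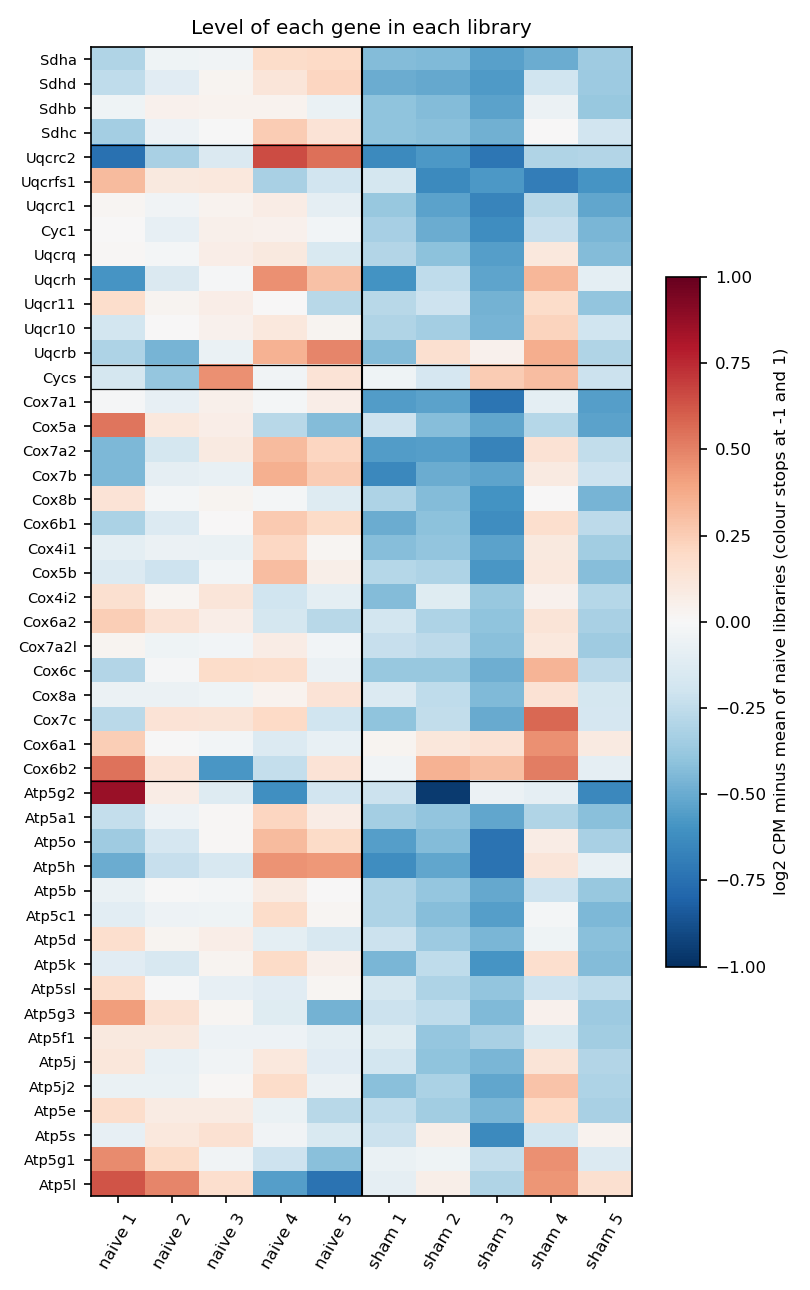
Level of each of the 47 genes (rows, grouped by complex) in each library (columns), as log2 CPM minus the mean of the naive libraries, with red above and blue below that mean. In sham 4 many genes lie near or above the naive mean, and naive 1 departs from naive 4 and 5 in genes such as Uqcrc2, Uqcrh, Atp5g1 and Atp5l.

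Shared sequence was uneven over the 47 genes. In 20 of them no 50-base stretch occurs in another gene's transcript, and 10 of these were lower, with a median of -0.31. Of the 16 genes with up to 20% shared, 4 were lower (median -0.23), and of the 11 with more, 2 were lower (median -0.29). Of the 26 genes with at least 1000 exon bases 12 were lower (median -0.32), and of the 21 shorter ones 4 (median -0.23); without sham 4 these counts were 20 and 12. In sham 4 the genes' deviations from the sham mean ran with exon length at a correlation of -0.43 over the 47 genes, which share that library. The part of length, RNA quality or shared sequence in the changes was not tested.

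Summed over all 49 genes, the level was 28915 ± 904 CPM in naive and 22938 ± 2767 CPM in sham, a ratio of 0.793. The ratio was 0.762 for complex II, 0.756 for complex III, 0.821 for complex IV and 0.796 for complex V. The 8 cardiomyocyte markers, of which 7 were lower in sham, summed to 77670 ± 1929 CPM (75710 to 80347) in naive and 61842 ± 3639 CPM (57567 to 65066) in sham, a ratio of 0.796. All 8 had at least 100 CPM on average, a class in which 39.0% were lower, against 15.5% of all genes tested. Chain RNA per unit of cardiomyocyte marker RNA was 0.373 ± 0.019 in naive and 0.370 ± 0.032 in sham, with overlapping groups. Myh6 dominates this marker sum, at 38652 CPM in naive and 30509 CPM in sham. Log2 fold changes of the 8 markers ran from -0.08 (Tnnt2, not past the threshold) to -0.66 (Ryr2). As a share of raw counts, the chain genes took 2.63% ± 0.05 in naive and 2.51% ± 0.24 in sham.

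Markers of other cells moved with the groups, where 17.2% of all genes tested were higher and 15.5% lower. Of 8 macrophage and monocyte markers 8 were higher in sham, and their summed level was 275 ± 20.1 CPM in naive and 867 ± 76.1 CPM in sham, with the highest naive library at 303 and the lowest sham library at 751 CPM. Of 8 fibroblast markers 6 were higher, from 2659 to 3405 CPM to 12798 to 22308 CPM in sum, which Col1a1 and Col3a1 dominate. The summed ubiquitous Cox isoforms were also set per unit of cardiomyocyte marker, a sum that Myh6 dominates. They ran from 0.00455 to 0.00494 in naive and from 0.00498 to 0.00676 in sham without overlap. Muscle isoforms per unit of the same sum ran from 0.0608 to 0.0850 in naive and from 0.0681 to 0.0914 in sham. Endothelial markers summed to 1222 ± 119 and 1049 ± 39.3 CPM, with 2 of 6 lower. Of 6 adipocyte markers only Cidea was abundant enough to test and did not pass, and the defining Adipoq stood at or under the floor in every library. Smooth muscle and pericyte markers summed to 400 ± 84.0 CPM in naive and 474 ± 90.9 CPM in sham; of 5, Tagln was higher (1.24 ± 0.17, edgeR adjusted p 6.82e-05) and Kcnj8 lower (-0.30 ± 0.09, edgeR adjusted p 0.017). Skeletal muscle and red cell markers had none past the threshold, and of the 3 atrial markers tested Nppa was higher. The part of these cells in the results for chain genes was not tested.

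**Figure D4:**
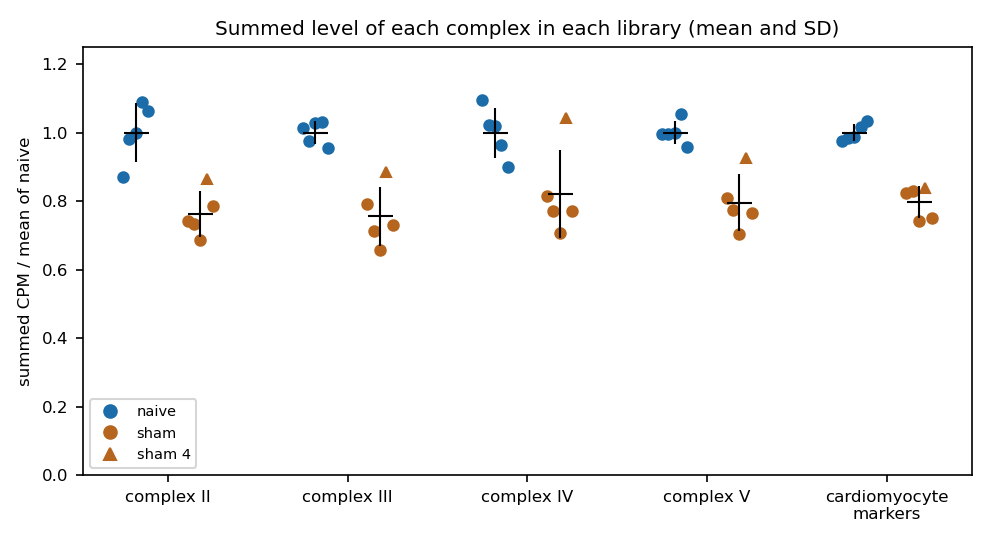
Summed CPM of each complex and of the 8 cardiomyocyte markers in each library, divided by the naive mean (vertical axis, from 0), with mean and SD as black marks. The sham means lie at 0.756 to 0.821 of naive for the complexes and 0.796 for the markers with TMM scaling; sham 4 (triangle) is the highest sham library for each complex.

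The partners encoded in mitochondrial DNA were read unevenly. mt-Cytb, the electron-carrying core of complex III, had 2562 CPM in naive (2278 to 2760) and 2314 CPM in sham (1987 to 2744) and did not pass (-0.15 ± 0.10, edgeR adjusted p 0.262). mt-Co1, the catalytic subunit of complex IV, had 2931 CPM (1951 to 4319) and 2196 CPM (2055 to 2358) and did not pass (-0.42 ± 0.19, edgeR adjusted p 0.119). mt-Co2, mt-Co3 and mt-Atp6 were listed at 0 in every naive library and mt-Atp8 in every library. Of the 50-base stretches of mt-Co2, mt-Co3 and mt-Atp6, 100%, 99.9% and 99.5% also occur in nuclear pseudogene transcripts, against 51.1% for mt-Co1 and 0 for mt-Cytb and mt-Atp8. Since heart cells use all of these genes, a listing at 0 is reported here only as a listing. The part of shared sequence in it was not tested, and mt-Atp8 has none at this length.

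Assembly factors, which insert cofactors and join subunits, resembled the subunits in their counts. Of 38 listed 36 were tested, 12 (33.3%) were lower and 0 higher in sham, with a median of -0.27. Among all genes tested 15.5% were lower. The smallest p belonged to Taco1, which helps translate the mitochondrial subunit mt-Co1, at 31.1 to 38.1 CPM in naive and 21.1 to 25.5 CPM in sham (-0.60 ± 0.09, edgeR adjusted p 8.76e-05). Taco1 kept its call in all 23 alternatives, library size alone included. Ttc19, which maintains complex III, fell by 0.45 ± 0.08 and Cox15, which makes heme A for complex IV, by 0.43 ± 0.08 on the log2 scale (edgeR adjusted p 0.00076 and 0.00095). For these 3 genes the groups did not overlap.

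Of 9 partners and alternative subunits that the name rule leaves out, 7 were tested. Ndufa4l2, a relative of the complex IV subunit Ndufa4 and known as a hypoxia target, was the 1 called higher. That is 14.3% of the 7, against 17.2% of all genes tested. Ndufa4l2 had 41.1 to 52.7 CPM in naive and 59.9 to 64.4 CPM in sham without overlap (0.40 ± 0.09, edgeR adjusted p 0.0022), and passed in all 23 alternatives. Ndufa4 itself had 259 CPM in naive and 213 CPM in sham and did not pass (-0.29 ± 0.13, edgeR adjusted p 0.0947). Higd2a, an assembly factor of complex IV and supercomplexes, was lower (-0.33 ± 0.11, edgeR adjusted p 0.032) and lost its call in 9 of 23 alternatives.

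The carriers and pores that feed complex V with ADP and phosphate and release ATP had 4 of 6 tested genes lower and 0 higher. For this and the next list, the share lower among all genes tested was 15.5%. Vdac1, the main pore of the outer membrane, had 539 to 590 CPM in naive and 378 to 464 CPM in sham (-0.43 ± 0.08, edgeR adjusted p 0.00060). Slc25a3, the phosphate carrier, and Slc25a4, the muscle ADP and ATP carrier, changed by -0.40 ± 0.08 and -0.37 ± 0.10 (edgeR adjusted p 0.0014 and 0.0068). The groups did not overlap for any of these 3. Genes that transcribe and copy mitochondrial DNA had 4 of 12 tested lower and 0 higher, led by the helicase Twnk (-0.45 ± 0.10, edgeR adjusted p 0.0021). The polymerases Polrmt, for transcription, and Polg, for copying, were lower by edgeR's test as well, with changes of -0.28 ± 0.08 and -0.34 ± 0.10. Of the named assembly, carrier and copying genes, Ttc19, Cox15, Vdac1, Slc25a3, Slc25a4 and Twnk lost their calls with library size alone and in no other setting. Polrmt lost its call in 2 settings and Polg in 5.

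Of the 49 genes, 38 had an entry in the RefSeq promoter table (GRCm38.p6), each searched in 300 bases from 250 before to 50 after the start, on both strands. The NRF1 motif CGCATGCG occurred in 7 of them (18.4%) and in 1.86% of all 32817 windows in the table. They were Atp5g2, Atp5k, Atp5l, Cox6a1, Cycs, Uqcr11 and Uqcrc1, of which Uqcrc1 alone was lower in sham. The ERR motif AAGGTCA occurred in 5 (13.2%, against 4.72% of all windows) and the ETS motif CCGGAAGT in 4 (10.5%, against 3.89%). The YY1 motif AAGATGGCG occurred in 2 (5.26%, against 1.40%), the E-box CAGCTG in 2, Atp5b and Cox8b, against 16.3% of windows, and the MEF2 motif CTAAAAATA in 0, against 0.518%. None of these motifs contains another. Of the transcription factors themselves, Nrf1 had 16.6 CPM in naive and 17.3 CPM in sham and did not pass (0.06 ± 0.09, edgeR adjusted p 0.676), nor did Gabpa (-0.21 ± 0.11, edgeR adjusted p 0.152).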

How the data were processed

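For 10 ventricle samples the authors deposited unnormalised read counts for Ensembl genes. The GC percent that the deposited table lists served the GC correction only. Libraries were poly(A)-selected, single-end and without strand, per the labels' protocols. Bowtie2, TopHat2 2.1.1, HTSeq, DESeq and edgeR and the build GRCm38 appear in the submitters' processing notes, with no roles. Which annotation release was used, and how reads on several genes or strands were counted, the labels used here do not state.

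The table's 41264 entries held 574 repeats with identical counts, which were collapsed to 40690 genes. No pair of libraries agreed within sampling noise. In edgeR 4.0.16, genes were filtered with filterByExpr at a minimum count of 10 and a minimum total of 15; the 13622 left were scaled with TMM factors and tested with the quasi-likelihood F test (robust, group alone, Benjamini-Hochberg adjusted p under 0.05). The SE of a log2 fold change is its size over the square root of F. CPM values are TMM-scaled, and RPKM values divide them by the kilobases of merged protein-coding exons. Isoform ratios are counts plus 0.5 within a library, compared by exact permutation over samples. Coordinates and shared 50-base stretches come from GENCODE M21 on GRCm38. Tests were run in R 4.3.3 with limma 3.58.1 and DESeq2 1.42.0 as alternatives, with figures in matplotlib 3.10.9, and the fit was tested on simulated data. Alternatives were other scalings, filters and tools, a GC correction, a replicate block and each library left out.

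The genes, lists and markers were chosen with earlier results of these data known. Genes described in full were the 3 of smallest p in complexes II, III, IV and V, the Cox isoform pairs, Cox4i1, Cox4i2, Cycs, the c ring, Atp5a1 and Atp5b, any gene past the threshold as higher, the largest and smallest change, those not tested, and up to 3 of smallest p from each other list with the mitochondrially encoded subunits. Gabpa, Nrf1 and single genes beyond this rule were named after their values were seen.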

Additional observations from a re-analysis of the deposited data

Results flagged for a closer look

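In 5 genes, 1 sham library lay far from the other 4, measured as its gap to the nearest of them over the range of all 5. For Uqcrfs1 the library was sham 1, at 9.55 on the log2 CPM scale against 9.03 to 9.15 in the others, a gap ratio of 0.766. For the rest it was sham 4: Cox6a1 at 7.44 against 7.01 to 7.13 (0.730), Cox6c at 7.91 against 7.07 to 7.30 (0.730), Atp5g1 at 7.16 against 6.47 to 6.66 (0.720) and Atp5j2 at 9.12 against 8.32 to 8.53 (0.737). The critical value is 0.710. With 100 groups examined, chance alone flags about 1 in 20, and 5 were found.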

How the results depend on the processing

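Of 23 alternatives, library size alone left 0 genes lower in every complex and 1 higher, and turned Atp5f1 from -0.26 to 0.00131. The count of 16 lower became 36 with limma voom, 30 with the replicate block, 34 (1 higher) without naive 1 and sham 4 together, and 32 with the replicate block and the GC correction, which was chosen after seeing the data. The share lower among all genes tested in these settings was 23.8%, 20.6%, 15.7% and 21.8%, against 15.5% in the main fit. With no filter on low counts it was 5.83%. In complex III the 3 became 5 (DESeq2, GC correction), 6 (voom, replicate block), 8 (without naive 1 and sham 4) and 7 (block with GC). In complex IV the 4 became 14 (voom), 8 (no filter on low counts), 9 (replicate block, also with GC) and 11 (without naive 1 and sham 4). In complex V the 6 became 12 (voom, block with GC) and 11 (replicate block, also without naive 1 and sham 4). With 1 library left out the counts ran from 9 to 32 in all, from 3 to 6 in complex III, 1 to 11 in complex IV and 2 to 11 in complex V. The Cox6a pair kept -0.39 with the replicate block, whose smallest exact p is 0.0625 (adjusted 0.0938). Without naive 1 and sham 4 the Cox6a pair had -0.40, with the smallest exact p that 4 against 4 allows, 0.0286 (adjusted 0.0857). The Cox7a pair turned to 0.0225 there. The GC correction gave -0.26 for Cox7a and -0.21 for Cox8, past the threshold. Without 1 library the log2 difference ran from -0.25 to -0.14 for Cox8 and from -0.20 to -0.0091 for Cox7a. Same-numbered libraries correlated at 0.23, 0.04, 0.01, 0.29 and 0.29 across genes, and libraries numbered 2 and 3 did not correlate best with their own number, so the numbers were not taken to pair animals. The cause of these differences was not tested. Low counts limit Cycs, Atp5g2, Atp5s, Cox6b2, Uqcrb and Atp5l, all under 10 CPM on average. Shared 50-base stretches make up 84.85% of Atp5l, 43.4% of Uqcrb, 38.35% of Atp5g2 and 28.5% of Cycs, so their levels are uncertain.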
